A study of Mus musculus with 12 samples.

Results

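The STAT and JAK genes described here are Stat2, Stat3, Stat4, Stat5a, Stat5b and Stat6, which encode transcription factors, and Jak1, Jak2 and Tyk2, which encode tyrosine kinases. They were chosen by symbol and are 9 of the 23997 genes listed in each library. All 9 were among the 10581 genes that passed the filter on low values. After LPS, Pim1-/- macrophages held 31.6% of the WT mean of Stat3, 40.2% of Jak1 and 48.3% of Stat2, whereas Stat4, the least abundant member, was higher without Pim1 in both treatments. Relative to Actb, itself lower in LPS-treated Pim1-/- cells, Stat3 alone of the 9 was lower after LPS.

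Many cytokine receptors have no kinase activity of their own and are bound by JAK kinases, which phosphorylate the receptor once its ligand has joined the chains. STAT proteins dock there, are phosphorylated in turn, pair up and move to the nucleus. In macrophages, LPS induces type I interferon and other cytokines that act back on the same cells through these proteins, and SOCS proteins restrain the signal.

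Bone marrow-derived macrophages (BMDMs) on a C57BL/6 background came from WT or Pim1-/- mice and were left untreated or received LPS, the bacterial ligand of TLR4, at 100 ng/ml for 4 h. Pim1 encodes a serine/threonine kinase, and the mutant mice carry a CRISPR/Cas9 deletion of exons I–V in every cell. All donors were male and 8 to 10 weeks old, and marrow cells were grown for 7 d with human M-CSF at 10 ng/ml. Each of the 4 groups had 3 libraries, 12 in all. The study describes its data in general as independent experiments, but the labels do not tie a library to a mouse or a culture, so the p-values measure the spread between libraries, which may be technical.

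Values are FPKM, fragments per kilobase of transcript scaled to each library. They were tested with limma as log2(FPKM + 1), on which changes of low genes look smaller than they are. A gene was called at a change above 2-fold, p under 0.05 and adjusted p (Benjamini-Hochberg) under 0.1, and a second, wider rule used the adjusted p alone. FPKM sums were 452511 to 489710 in untreated libraries, 837585 to 849323 in LPS-treated WT libraries and 713307 to 743912 in LPS-treated Pim1-/- libraries. The estimated number of fragments behind a value ranged from 96 to 435 for Stat4 and from 801 to 35307 for the other members. Between libraries of a group, the median coefficient of variation was 3.03% to 5.12% in genes whose mean was 10 FPKM or more.

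Pim1 itself was at 24.96, 21.5 and 22.3 FPKM in untreated WT libraries and at 8.70, 8.00 and 9.51 FPKM in untreated Pim1-/- libraries. In LPS-treated libraries it stood at 665, 630.2 and 641 FPKM for WT and at 216, 205 and 236 FPKM for Pim1-/-. The genotypes did not overlap, and the value covers the whole gene without separating the deleted exons from the rest. Of the 9 macrophage markers analysed, all 9 had a lower mean in Pim1-/- cells in both treatments. Their summed level was 27720 to 29766 FPKM in untreated WT libraries and 14284 to 15198 FPKM in untreated Pim1-/- libraries. After LPS it was 30371 to 30847 FPKM against 15657 to 17509 FPKM. Lyz2 alone made up most of this sum, with a WT mean of 26302 FPKM untreated and 26785 FPKM after LPS. Single markers differed widely. Without treatment, Pim1-/- means ran from 29.2% of the WT mean (Fcgr1) to 95.7% (Cd14, adjusted p = 0.22 by limma), with Lyz2 at 50.6%. After LPS, Fcgr1 stood at 22.4%, Lyz2 at 51.1% and Cd14 at 91.3%. Of 12 cell cycle genes, 12 had a higher mean in untreated and 11 in LPS-treated Pim1-/- cells. The part of these shifts in the differences between genotypes described below was not tested, and in bulk RNA fewer cells of a type and less RNA per cell cannot be told apart.

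The members lie on 6 chromosomes of GRCm38 (GENCODE M21 annotation). Stat5b (chr11:100780731-100850724, − strand), Stat5a (chr11:100859351-100885169, + strand) and Stat3 (chr11:100885098-100939540, − strand) stand side by side, with 8626 bases between Stat5b and Stat5a. Stat5a and Stat3 overlap by 72 bases at their 3′ ends on opposite strands. The library kit was stranded, but whether counting used the strand is not stated, so fragments of these 72 bases may have gone to either gene. Stat6 (chr10:127642986-127660957, + strand) and Stat2 (chr10:128270559-128292849, + strand) share a chromosome and lie 609601 bases apart. Stat4 is at chr1:51987148-52107189 on the + strand, Jak1 at chr4:101152367-101265282 on the − strand, Tyk2 at chr9:21104068-21131243 on the − strand and Jak2 at chr19:29251828-29313080 on the + strand.

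Promoters from RefSeq (GRCm38.p6), 12 windows of 300 bases for the 9 members, were searched on both strands for 2 motifs. One was the GAS, the element to which STAT dimers bind, spelled TTCNNNGAA, and the other a core of the ISRE, the element bound by the interferon-activated complex ISGF3, which contains STAT2 and IRF9, spelled GAAANNGAA. A GAS was in 0 of the 12 windows and in 8.30% of 32851 windows of all genes. An ISRE core was in 2 of the 12 and in 8.56% of all windows. Those 2 windows, of Stat2 and of the second annotated start of Stat4, are shown because they hold the core. A link between the core and the differences between genotypes was not tested. Each line gives the 250 bases before a start site, with the ISRE core in capitals; it begins 221 bases before the start in Stat2, where it reads on the opposite strand, and 97 bases before the second annotated start in Stat4.
Stat2 (chr10:128270248-128270497, + strand): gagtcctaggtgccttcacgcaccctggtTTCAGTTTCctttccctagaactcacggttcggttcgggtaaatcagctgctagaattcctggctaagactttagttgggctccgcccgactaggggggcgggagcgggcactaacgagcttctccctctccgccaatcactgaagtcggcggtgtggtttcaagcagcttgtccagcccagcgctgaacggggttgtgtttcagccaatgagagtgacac
Stat4 (chr1:52007990-52008239, + strand): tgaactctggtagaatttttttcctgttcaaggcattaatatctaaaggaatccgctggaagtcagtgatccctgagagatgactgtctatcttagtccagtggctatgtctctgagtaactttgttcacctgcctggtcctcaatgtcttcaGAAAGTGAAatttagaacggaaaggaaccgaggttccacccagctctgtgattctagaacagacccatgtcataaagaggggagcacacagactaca
A match of letters is a description and does not show that a factor binds there. The other window of Stat4 and the windows of Stat3, Stat5a, Stat5b, Stat6, Jak1, Jak2 and Tyk2 held neither spelling.

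Stat2, the STAT that joins IRF9 in ISGF3, was about 2-fold lower without Pim1 in both treatments. It was at 12.3, 12.0 and 12.6 FPKM in untreated WT libraries and at 5.04, 5.48 and 5.65 FPKM in untreated Pim1-/- libraries. LPS-treated libraries held 189, 180.2 and 180.4 FPKM for WT and 84.1, 86.5 and 94.5 FPKM for Pim1-/-. The genotypes were apart in both treatments, and the 3 Pim1-/- libraries with LPS lay far above all untreated ones. On the log2 scale the difference between genotypes was -1.06 (SE 0.05, adjusted p = 4.4e-11) without treatment and -1.04 (SE 0.05, adjusted p = 4.8e-11) after LPS, both just past the 2-fold threshold. Equal FPKM sums put the value after LPS at -0.84 and quantile normalization at -0.72, short of it, and scaling to Actb turned it to 0.39. LPS raised Stat2 by 3.79 in WT and by 3.81 in Pim1-/- cells on the log2 scale. The difference between these responses was 0.01, with a 95% confidence interval from -0.14 to 0.17 (adjusted p = 0.89), though quantile normalization gave 0.46 (adjusted p = 0.0001). Stat2 is among the interferon-stimulated genes that the study displayed from these same libraries, so its call is not independent evidence of its direction.

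Stat3, which transmits signals of IL-6 and IL-10, had the largest difference between genotypes after LPS among the members. Untreated WT libraries held 26.7, 29.7 and 27.8 FPKM, and untreated Pim1-/- libraries 14.2, 15.0 and 16.3 FPKM. LPS-treated WT libraries lay close together at 129.1, 128.5 and 129.4 FPKM, and LPS-treated Pim1-/- libraries at 38.2, 39.2 and 44.8 FPKM. The treated Pim1-/- values were thus nearer to untreated than to treated WT cells, and no group overlapped with another. The log2 difference between genotypes was -0.85 (SE 0.06, adjusted p = 6.4e-09) without treatment, under the 2-fold threshold, and -1.64 (SE 0.06, adjusted p = 2.4e-12) after LPS, past it. Stat3 rose 4.60-fold with LPS in WT and 2.69-fold in Pim1-/- cells, and the responses differed by -0.79 on the log2 scale (SE 0.09, adjusted p = 1.3e-06). With libraries scaled to Actb the difference after LPS was -0.22 (adjusted p = 0.003), while that of the responses turned to 0.30.

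**Figure D1:**
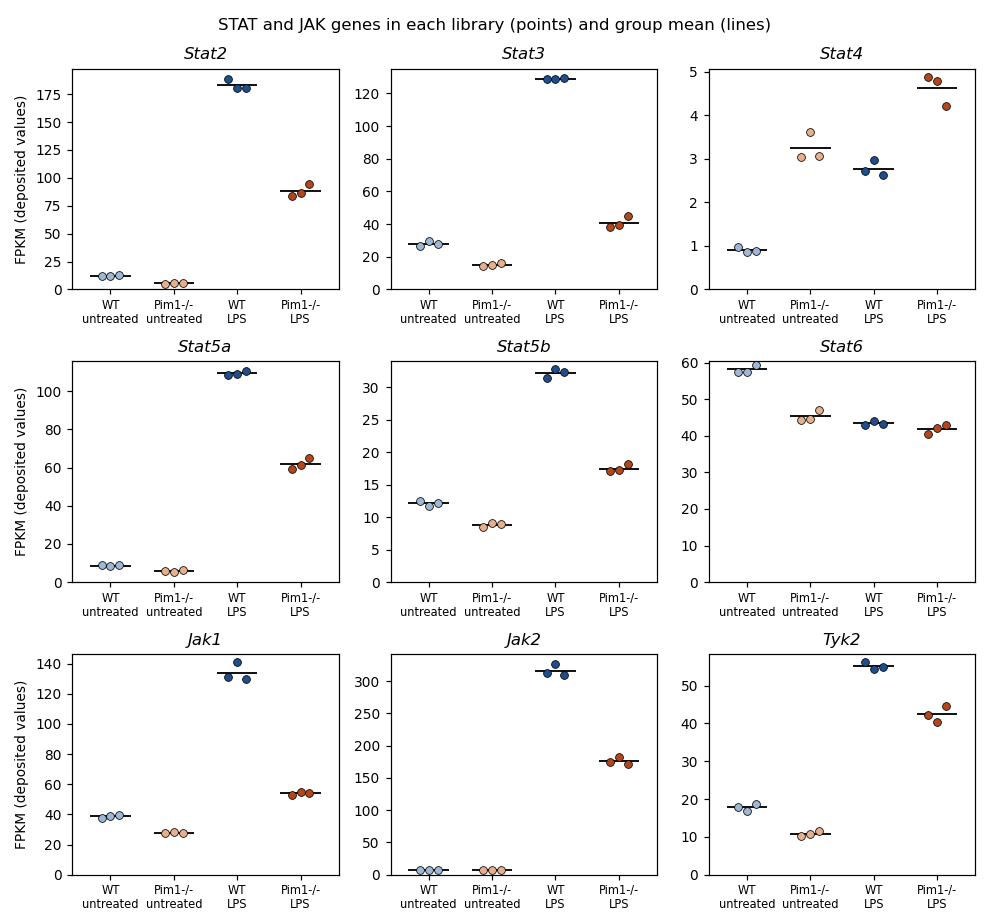
Deposited FPKM of the 9 STAT and JAK genes (y axis, a separate scale from 0 in each panel) in the 4 groups (x axis), with 1 point per library and a line at the mean of 3 libraries. Jak2 goes from 7.19 to 7.72 FPKM in untreated libraries to between 171 and 326 FPKM after LPS, Stat6 is highest in untreated WT libraries, and Stat4 stays under 5 FPKM throughout.

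Stat5a and Stat5b encode closely related proteins that act below the receptors of GM-CSF, IL-3 and other growth factors. The neighbouring pair differed in how LPS moved it. Stat5a was at 8.89, 8.19 and 8.76 FPKM in untreated WT and at 5.71, 5.42 and 6.21 FPKM in untreated Pim1-/- libraries. It reached 108, 109 and 110.5 FPKM in LPS-treated WT and 59.1, 61.3 and 65.2 FPKM in LPS-treated Pim1-/- libraries. Stat5b went from 12.4, 11.7 and 12.3 FPKM to 31.5, 32.8 and 32.4 FPKM in WT, and from 8.46, 9.17 and 8.96 FPKM to 17.1, 17.2 and 18.1 FPKM in Pim1-/- libraries. Every Pim1-/- value of either gene was below every WT value of the same treatment. In log2 terms Stat5a was lower by 0.50 (SE 0.05, adjusted p = 3.3e-07) without treatment and by 0.81 (SE 0.05, adjusted p = 1.1e-09) after LPS, without passing 2-fold. For Stat5b the differences were -0.41 (SE 0.04, adjusted p = 7.2e-07) and -0.85 (SE 0.04, adjusted p = 1.5e-10). Scaling to Actb turned the values after LPS to 0.606 for Stat5a and 0.515 for Stat5b. LPS raised Stat5a 12.7-fold in WT and 10.7-fold in Pim1-/- cells, and Stat5b 2.65-fold and 1.97-fold. The ratio of Stat5a to Stat5b within a library, which no scaling of whole libraries changes, moved from 0.709 ± 0.011 (SD, n = 3) to 3.40 ± 0.06 in WT and from 0.653 ± 0.055 to 3.54 ± 0.07 in Pim1-/- cells. The transcripts share 265 windows of 100 bases, 6.99% of those of Stat5a and 5.18% of those of Stat5b. Fragments of these windows may have gone to either gene, and how far this moves either value was not tested.

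Stat6, which acts below the IL-4 receptor, was the one member lower after LPS in both genotypes. Its values were 57.5, 57.6 and 59.5 FPKM in untreated WT, 44.3, 44.5 and 47.1 FPKM in untreated Pim1-/-, 42.9, 44.1 and 43.2 FPKM in LPS-treated WT and 40.5, 42.1 and 43.0 FPKM in LPS-treated Pim1-/- libraries. The 3 untreated WT libraries stood above all others, and the genotypes overlapped after LPS. Without treatment the log2 difference between genotypes was -0.35 (SE 0.04, adjusted p = 1.1e-06), and after LPS it was -0.05, with a 95% confidence interval from -0.14 to 0.03 (adjusted p = 0.24). That small value turned to 0.16 (adjusted p = 0.0037) with quantile normalization and to 0.15 (adjusted p = 0.014) with equal FPKM sums. Scaling to Actb turned it to 1.32 (adjusted p = 3.9e-11), past 2-fold, and gave 0.001 without treatment. LPS changed Stat6 by -0.41 (adjusted p = 7.2e-08) in WT and by -0.11 (adjusted p = 0.017) in Pim1-/- cells on the log2 scale, a difference of 0.30 (SE 0.06, adjusted p = 0.00028).

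Stat4, best known for IL-12 signalling in lymphocytes, had the lowest level of the 9 in every group and was the one member higher without Pim1. It was at 0.987, 0.852 and 0.881 FPKM in untreated WT and at 3.05, 3.62 and 3.07 FPKM in untreated Pim1-/- libraries. With LPS the values were 2.73, 2.98 and 2.62 FPKM for WT and 4.88, 4.80 and 4.21 FPKM for Pim1-/- libraries. All Pim1-/- libraries were above the WT libraries of the same treatment, by 3.58-fold of the means without treatment and 1.66-fold with LPS. On the log2(FPKM + 1) scale the differences were 1.15 (SE 0.07, adjusted p = 5.3e-10), past 2-fold, and 0.57 (SE 0.07, adjusted p = 1.5e-06). LPS raised Stat4 by 0.99 in WT, just under the threshold, and by 0.41 in Pim1-/- cells, where scaling to equal FPKM sums gave -0.12 (adjusted p = 0.1). The WT response was past the threshold without 1 untreated library (replicate 1, 1.02) or 1 treated library (replicate 3, 1.02), and with a pseudocount of 0.1 (1.52) or quantile normalization (1.27). Of 6 T and NK cell markers, 4 were listed at 0 in every library (Cd3e, Cd3g, Cd8a and Ncr1). The sum of the 6 was 4.83 to 5.40 FPKM in untreated WT and 0.648 to 0.698 FPKM in untreated Pim1-/- libraries, of which Cd4 had means of 4.96 and 0.432 FPKM. The remaining marker, Klrb1c, was at a low level and had higher means in Pim1-/- cells, as Stat4 did, from 0.077 ± 0.010 FPKM (SD, n = 3) in WT to 0.242 ± 0.051 FPKM in Pim1-/- cells untreated and from 0.122 ± 0.032 FPKM to 0.443 ± 0.149 FPKM with LPS. The part of such cells in the values of Stat4 was not tested.

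Jak1, a kinase of the interferon, IL-6 and common gamma chain receptors, was lower without Pim1 in both treatments, more so after LPS. Untreated values were 37.9, 38.7 and 39.8 FPKM in WT and 27.6, 28.4 and 27.8 FPKM in Pim1-/- libraries. With LPS they were 131, 140.9 and 129.7 FPKM in WT and 53.0, 54.7 and 54.0 FPKM in Pim1-/- libraries. The 4 groups did not overlap. The log2 difference between genotypes was -0.46 (SE 0.04, adjusted p = 7e-08) without treatment and -1.30 (SE 0.04, adjusted p = 3.6e-13) after LPS, past 2-fold. Quantile normalization gave -0.93 after LPS, short of 2-fold, and scaling to Actb gave 0.13 after LPS and -0.11 (adjusted p = 0.17) without treatment. Jak1 rose 3.45-fold with LPS in WT and 1.93-fold in Pim1-/- cells, and the responses differed by -0.84 on the log2 scale (SE 0.06, adjusted p = 9.1e-09), a value that became -0.43 with quantile normalization and 0.24 with Actb.

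Jak2, the kinase of the receptors for GM-CSF, IL-3 and interferon gamma among others, had the largest response to LPS among the members and no detectable difference between genotypes before it. Untreated libraries held 7.33, 7.72 and 7.38 FPKM in WT and 7.38, 7.39 and 7.19 FPKM in Pim1-/- cells, which overlapped. The log2 difference was -0.03, with a 95% confidence interval from -0.11 to 0.06 (adjusted p = 0.56). After LPS, WT libraries held 313, 326 and 309 FPKM and Pim1-/- libraries 175, 182 and 171 FPKM, with no overlap. Jak2 thus rose 42.3-fold in WT and 24.0-fold in Pim1-/- cells. Its log2 difference between genotypes after LPS was -0.84 (SE 0.04, adjusted p = 4e-11), and the responses differed by -0.81 (SE 0.06, adjusted p = 9.9e-09). With Actb scaling the genotypes differed by 0.31 (adjusted p = 0.0019) before LPS and by 0.59 after it, and the responses by 0.28.

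Tyk2, which partners JAK1 at the type I interferon receptor, differed between genotypes less after LPS than before in the values as deposited. It was at 17.9, 16.8 and 18.8 FPKM in untreated WT and at 10.2, 10.8 and 11.5 FPKM in untreated Pim1-/- libraries. LPS-treated WT libraries held 56.1, 54.5 and 54.9 FPKM and LPS-treated Pim1-/- libraries 42.2, 40.4 and 44.7 FPKM. No groups overlapped, and LPS-treated libraries were all above untreated ones. In log2 terms the genotypes differed by -0.67 (SE 0.05, adjusted p = 2.1e-08) without treatment and by -0.37 (SE 0.05, adjusted p = 1.2e-05) after LPS, where quantile normalization gave -0.12 (adjusted p = 0.063). Scaling to Actb gave -0.34 without treatment and 1.02 (adjusted p = 5.3e-10) after LPS, past 2-fold in the other direction. Tyk2 rose 3.10-fold in WT and 3.91-fold in Pim1-/- cells, a difference of responses of 0.30 (SE 0.08, adjusted p = 0.0031). The ratio of Jak1 to Tyk2 within a library was 2.18 ± 0.11 (SD, n = 3) in untreated WT, 2.58 ± 0.14 in untreated Pim1-/-, 2.43 ± 0.14 in LPS-treated WT and 1.27 ± 0.07 in LPS-treated Pim1-/- cells.

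Counted together in untreated cells, 1 member was called lower without Pim1 (Stat2) and 1 higher (Stat4), where 3.37% of all genes tested were called lower and 4.40% higher. By adjusted p alone 7 were lower and 1 higher, beside 44.2% and 34.6% of all genes. The 3 values of one genotype stood clear of the other in 8 of 9 members and in 78.4% of all genes, so separation as such was common. The median log2 difference was -0.46 over the members and -0.05 over all genes tested, and with Actb scaling Stat6 and Jak2 turned from below to above 0, Stat2 (-0.78) was no longer called, and Jak1 (-0.11, adjusted p = 0.17) and Stat5b (-0.09, adjusted p = 0.22) no longer passed the adjusted p.

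After LPS, 3 members were called lower without Pim1 (Stat2, Stat3 and Jak1) and 0 higher, where 5.15% of all genes were called lower and 3.51% higher. By adjusted p alone limma found 7 lower and 1 higher, Stat4, beside 43.4% and 37.6% of all genes. Genotypes did not overlap in 8 of 9 members and in 77.5% of all genes. The members' median was -0.84 and that of all genes -0.03. Under quantile normalization Stat3 was the 1 member called lower, with a log2 difference of -1.23, and Stat2 had -0.72 and Jak1 -0.93. Scaling to Actb moved the median of all genes to 0.98 and put 8 of the 9 members above 0, all but Stat3, yet 6 members stayed below that shifted median.

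**Figure D2:**
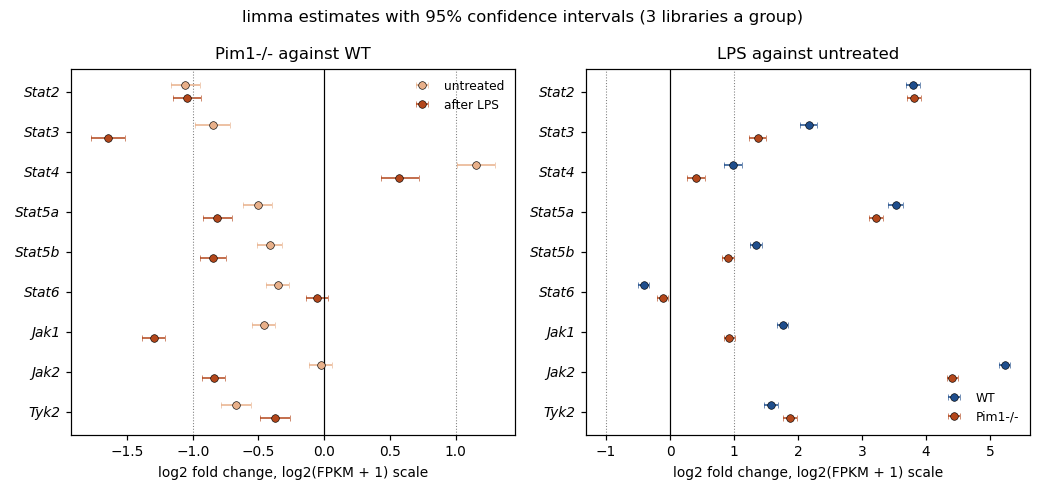
Log2 fold changes on the log2(FPKM + 1) scale (x axis) of the 9 genes (y axis), with 95% confidence intervals from limma over 3 libraries a group; left, Pim1-/- against WT in untreated and LPS-treated cells, and right, LPS against untreated in each genotype, with dotted lines at 2-fold. Stat3 and Jak1 move furthest left after LPS, to -1.64 and -1.30, a side on which scaling to Actb keeps Stat3 but not Jak1, and Stat2 has nearly the same response in both genotypes, 3.79 and 3.81.

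In WT cells LPS raised 7 members by the 2-fold rule, all but Stat4 and Stat6, where 20.1% of all genes were called higher and 14.7% lower. By adjusted p 8 were higher and 1 lower, beside 45.8% and 45.4% of all genes, and treated and untreated libraries were apart in 9 of 9 members and in 90.4% of all genes. The members' median was 1.76 and that of all genes 0.00. In Pim1-/- cells 5 members were called higher (Jak2, Stat2, Stat5a, Tyk2 and Stat3), where 14.6% of all genes were called higher and 10.4% lower. By adjusted p 8 were higher and 1 lower, beside 43.2% and 44.0% of all genes, and libraries were apart in 9 of 9 members and in 83.8% of all genes. The median was 1.37 over the members and -0.01 over all genes. With quantile normalization 5 members were called higher in WT, since Stat5b (0.93), Jak1 (0.86) and Tyk2 (0.99) fell short and Stat4 (1.27) passed, and Stat6 was called lower (-1.19). Equal FPKM sums left 4 called higher in WT and 4 in Pim1-/- cells, without Stat3 there (0.73). The direction of these responses depends on scaling, since Actb itself rose 6.09-fold in WT and 2.88-fold in Pim1-/- cells. Relative to Actb, Stat2, Stat5a and Jak2 were higher with LPS in both genotypes and Tyk2 in Pim1-/- cells, and the others were below 0, while 8 of 9 members stayed above the median of all genes, which moved to -2.03 in WT and -1.36 in Pim1-/- cells. With equal FPKM sums that median moved to -0.67 and -0.58, and 8 of 9 members were again above it.

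**Figure D3:**
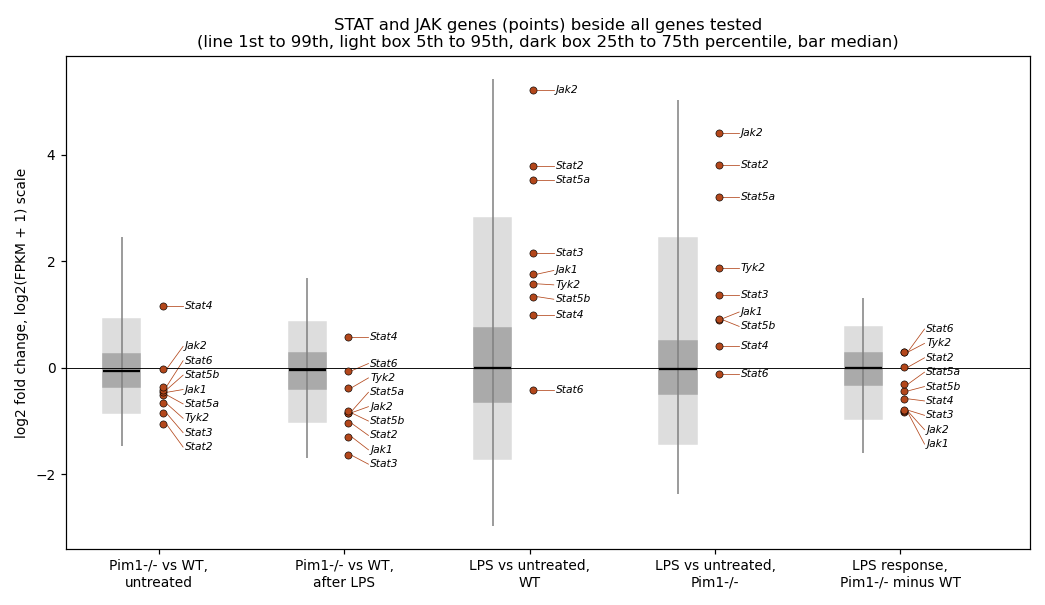
Log2 fold changes (y axis) of the 9 genes as named points beside all 10581 genes tested, drawn as percentiles (line 1st to 99th, light box 5th to 95th, dark box 25th to 75th, bar median), in 5 comparisons (x axis). Most members lie in the lower part of the range in both comparisons of genotypes and in the upper part with LPS, as the values were deposited; with scaling to Actb the members other than Stat3 are above 0 between genotypes after LPS.

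The response to LPS differed between genotypes, by the interaction term, in 8 of 9 members at an adjusted p under 0.1, 6 with a smaller value in Pim1-/- cells and 2 with a larger one, beside 35.8% and 32.7% of all genes. By the 2-fold rule limma called 0 members in either direction, where 4.43% of all genes were called smaller and 2.24% larger, and at an unadjusted p under 0.05 the count was 8. Jak1, Jak2 and Stat3 had the largest differences, between -0.84 and -0.79 on the log2 scale. The values of Stat4 (-0.58), Stat5b (-0.43) and Stat5a (-0.31) were smaller, and that of Stat5a changed sign to 0.06 (adjusted p = 0.51) with quantile normalization. Tyk2 and Stat6 had 0.30 each. Scaling to Actb put 8 of 9 members above 0 and Stat4 alone below, around a median of all genes of 0.74.

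Ordered by FPKM, which is per length, Stat6 was the most abundant member in untreated cells of both genotypes, followed by Jak1, Stat3 and Tyk2. The order at the top was another with LPS. Jak2 went from place 8 of 9 in untreated WT cells to place 1 in LPS-treated cells of both genotypes, and Stat2 from place 5 to place 2 in WT. Stat4 was last in every group. Neighbours in the order whose libraries overlapped were Stat2 and Stat5b in untreated WT, Stat5a and Stat2 in untreated Pim1-/-, and Tyk2 with Stat6 and Stat6 with Stat3 in LPS-treated Pim1-/- cells. Within LPS-treated WT libraries Stat3 was 2.97 ± 0.05 times Stat6 (SD, n = 3), and within LPS-treated Pim1-/- libraries 0.973 ± 0.060 times, compared with 0.482 ± 0.028 and 0.334 ± 0.013 in untreated WT and Pim1-/- libraries. The ratio of Jak2 to Jak1 was higher without Pim1 in both treatments, at 0.262 ± 0.005 against 0.193 ± 0.007 untreated and 3.26 ± 0.08 against 2.36 ± 0.04 with LPS.

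Patterns over the 12 libraries were compared by the root mean square difference between log2(FPKM + 1) values centred on each gene's own mean, over 10572 other genes tested. Nearest to Jak2 was Sod2, the mitochondrial superoxide dismutase, at 0.085, and nearest to Tyk2 was Rela, an NF-κB subunit, at 0.076. Lacc1 was nearest to Stat2 (0.090), followed by Samhd1, a nucleotide hydrolase that restricts viruses (0.108). For Stat3 the nearest genes were 4933426M11Rik (0.102) and Irak3, a brake on TLR signalling (0.147). Stat5a was nearest to Rapgef2 and Lcp2, Stat5b to Jade2 and Urgcp, Stat6 to Slc25a20 and Sufu, Jak1 to Mesdc1 and Slc31a1, and Stat4 to Znhit3 and Ulbp1, at 0.043 to 0.115. The second genes for Jak2 and Tyk2 were Bambi-ps1 and Mitf, at 0.135 and 0.084. Among members the closest pair was Jak1 and Stat5b, at 0.198. Each member was nearer to a gene outside the set than to another member. With 10572 genes searched outside and only the few members inside, that was likely from the start. These distances are descriptions over libraries of 4 groups and carry no test.

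Other genes of the pathway were taken from lists that partly overlap and were written with earlier results of these data known. Beside their counts, 3.37% of all genes tested were called lower without Pim1 and 4.40% higher in untreated cells. After LPS these shares were 5.15% and 3.51%. Of 12 ligand genes tested, 4 were called lower and 1 higher in LPS-treated Pim1-/- cells, and 1 lower (Ebi3) in untreated ones. By adjusted p alone, 6 were lower and 5 higher after LPS, beside 43.4% and 37.6% of all genes. Ifnb1, which encodes interferon beta, was among the higher, with a log2 difference of 0.80 (adjusted p = 3.9e-08 by limma). Ebi3, a subunit of IL-27, differed by -1.31 after LPS, and Csf2, which encodes GM-CSF, by 3.31 on the log2 scale, the 2 extremes of the list. Csf2 would not have passed the filter without the LPS-treated Pim1-/- libraries, where it is high, so its call is no independent support. LPS raised 10 of the 12 in WT and 12 in Pim1-/- cells by the 2-fold rule, beside 20.1% and 14.6% of all genes. Il6 led with 10.31 and 10.39. Most of the 12, Il6 among them, passed the filter only through LPS-treated libraries, so these rises were largely fixed by the filter. The list held 17 genes, and those that did not pass the filter were left out. The median difference between genotypes after LPS was -0.05 over the list, near the -0.03 of all genes.

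Of 22 receptor genes tested, 7 were called lower without treatment (median -0.71). By adjusted p 18 were lower and 1 higher, beside 44.2% and 34.6% of all genes. After LPS 5 were called lower and 1 higher, with a median of -0.59. Of the 5, Il2ra (1.57 FPKM in WT, 0.123 FPKM in Pim1-/- cells) passed the filter only through LPS-treated WT libraries. Its call is therefore no support for a lower level. Il4ra, the IL-4 receptor alpha chain whose signal goes through STAT6, had the largest decrease after LPS, from 113 ± 2.8 FPKM (SD, n = 3) for WT to 12.8 ± 0.6 FPKM for Pim1-/-, a log2 difference of -3.05. Il7r was the 1 receptor called higher, by 1.183. Without treatment the largest decrease was that of Csf3r, the G-CSF receptor, with -2.10. For type I interferon, Ifnar1 differed by -0.37 untreated and by -1.26 after LPS (adjusted p = 3.2e-12), and Ifnar2 by -0.06 (adjusted p = 0.17) and -0.35 (adjusted p = 1.6e-06). With LPS the largest changes among receptors were those of Il15ra, 4.46 in WT and 4.15 in Pim1-/- cells, and of Il6ra, -3.44 and -2.58.

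Among 18 inhibitors tested, 1 was called lower in untreated Pim1-/- cells (Socs6, -1.20) and 3 after LPS. These 3 were Ptpn1, a phosphatase of JAK2 and TYK2, with -2.19, and the feedback inhibitors Socs1 with -1.49 and Socs3 with -1.30. Socs1 was at 134 ± 8.4 FPKM (SD, n = 3) in LPS-treated WT and at 47.1 ± 2.4 FPKM in LPS-treated Pim1-/- cells, and Socs3 at 1118 ± 44 FPKM and 454 ± 28 FPKM. Cish, another SOCS family member, was at 38.1 ± 0.6 FPKM and 36.7 ± 2.7 FPKM, a log2 difference of -0.06 (adjusted p = 0.38). The largest rise with LPS was that of Socs3 in WT (7.80) and of Usp18 in Pim1-/- cells (8.03). Of 11 partners and coactivators, 0 were called in untreated cells. There 7 were lower and 2 higher by adjusted p, beside 44.2% and 34.6% of all genes. After LPS 2 were called lower, led by the adaptor Grb2 with -1.07. Irf9, the partner of STAT2, differed by -0.53 untreated (adjusted p = 2.8e-08) and by -0.01 after LPS, with means of 63.7 ± 0.8 FPKM for WT and 63.1 ± 3.2 FPKM for Pim1-/- (SD, n = 3, adjusted p = 0.77).

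**Figure D4:**
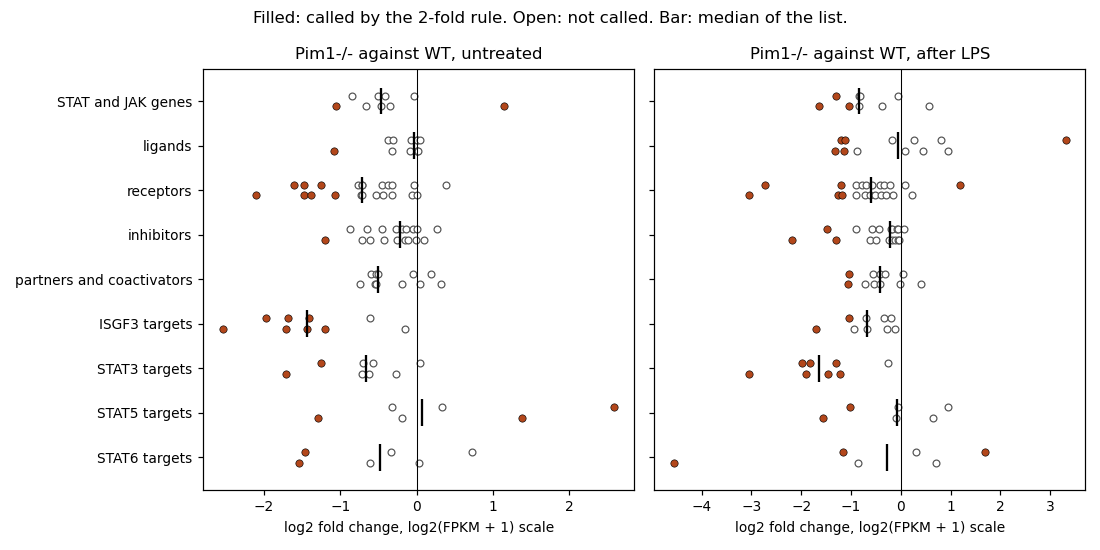
Log2 differences of Pim1-/- against WT cells (x axis) for the STAT and JAK genes and for 8 lists of other pathway genes (y axis), untreated on the left and after LPS on the right, with filled points for genes called by the 2-fold rule and a bar at the median of each list. The medians of known STAT3 and ISGF3 targets lie at -0.66 and -1.44 untreated and at -1.64 and -0.68 after LPS, and relative to Actb the second of these pairs becomes -0.22 and 0.74.

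Genes known as targets of single STATs were counted in the same way. These lists too were written with earlier results known, so their counts are not independent evidence about a STAT. Of all genes tested, 3.37% were called lower in untreated Pim1-/- cells and 5.15% after LPS. Of 9 known ISGF3 targets, 7 were called lower in untreated Pim1-/- cells and 2 after LPS, with medians of -1.44 and -0.68. Ifit3 had the largest decrease untreated (-2.54) and Mx1 after LPS (-1.70), and LPS raised all 9 in both genotypes, Rsad2 most, by 9.51 in WT and 10.85 in Pim1-/- cells. Of 8 known STAT3 targets, 2 were called lower without treatment and 7 after LPS, with medians of -0.66 and -1.64. Il1rn, the IL-1 receptor antagonist, was at 710.1 ± 13.3 FPKM (SD, n = 3) in LPS-treated WT and 179.9 ± 7.4 FPKM in LPS-treated Pim1-/- cells, and its response differed by -2.02. Among 6 known STAT5 targets after LPS, 2 were called lower, Ccnd2 and Pim1. Because Pim1 is the deleted gene, its call is no evidence about STAT5 targets. In untreated cells Ccnd1, a cyclin, was higher by 2.60 and Ccnd2 by 1.39. Of 6 known STAT6 targets, 2 were called lower in either treatment and 1 higher after LPS. The chemokine Ccl24 had 80.5 ± 1.6 FPKM in LPS-treated WT and 2.46 ± 0.13 FPKM in LPS-treated Pim1-/- cells (-4.56), whereas the chemokine Ccl17 was higher by 1.69. With Actb as the reference, the median after LPS came to -0.22 for the STAT3 list and between 0.69 and 1.31 for the other 7 lists, around a median of all genes of 0.98. Several interferon-stimulated genes of these lists were displayed by the study from the same libraries, and whether any listed gene answers to its STAT in these cells was not tested.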

How the data were processed

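RNA-seq of BMDMs gave 1 value per gene and library in 12 libraries. The authors trimmed reads with cutadapt 1.18, mapped them with TopHat 2.0.13 and deposited expression from Cuffdiff 2.2.1, read here as FPKM, since the columns carry no unit. The processing notes name mm10 and the methods rat rn5, while 94.6% of the 23997 gene names match mouse GENCODE M21. For the annotation and the normalization of libraries, the sources used here give no name. FPKM holds no counts, so no counting interval is given, and fragments were estimated from the steps between low values (66.0% to 73.9% of them within 0.05 of a whole multiple).

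Genes reaching 1 FPKM in 3 or more libraries were fitted with limma 3.58.1 in R 4.3.3 on log2(FPKM + 1), as 4 group means with a mean-variance trend, and p-values were adjusted over all 10581 genes (Benjamini-Hochberg). Thresholds (2-fold, p under 0.05, adjusted p under 0.1) are those the methods give for increased genes, applied in both directions. On simulated data with changed genes in the comparison after LPS, 100 of 100 at a log2 change of 0.5 were recovered by adjusted p, 100 of 100 at 1.3 by the 2-fold rule, and 25 unchanged genes passed the adjusted p.

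Members and lists were chosen with earlier results of these data known. The genes named are the members, Pim1, the most alike genes by pattern, the called extremes of each list and Irf9, Ifnar1, Ifnar2, Socs1, Socs3 and Cish; other list members were named after their values were seen. Marker genes Adgre1 and Ly6g were not analysed here. Same-numbered deviations from the group means correlated at 0.33 to 0.46 between untreated genotypes and at 0.43 to 0.68 between Pim1-/- treatments. Between LPS-treated genotypes the correlations were 0.02, 0.37 and 0.19, and between WT treatments -0.10, 0.14 and 0.19. These values are over 3646 genes with 10 FPKM or more in every library. Over 5416 genes with a mean of 10 FPKM or more, those of untreated genotypes and of Pim1-/- treatments fell to between 0.01 and 0.34. Whether the numbers pair libraries thus depends on the genes used and is not settled. The main fit had no replicate block, and the block was an alternative.

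Alternatives were a pseudocount of 0.1, no filter or 5 FPKM, median-ratio and quantile scaling, no trend, an adjusted p under 0.05 without a fold, the block, only the groups compared and leaving out each library. Scaling to equal FPKM sums and to Actb, the reference of the study's RT-qPCR, was added after the data were seen. Other steps used Python 3.11.15 with numpy 2.4.6, pandas 2.3.3 and, for figures, matplotlib 3.10.9.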

Additional observations from a re-analysis of the deposited data

Results flagged for a closer look

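By the interaction term of limma, the response to LPS differed between genotypes in 8 of the 9 STAT and JAK genes at an adjusted p under 0.1. As Pim1-/- minus WT on the log2(FPKM + 1) scale, the difference was -0.837 for Jak1, -0.814 for Jak2, -0.794 for Stat3, -0.581 for Stat4, -0.433 for Stat5b, -0.307 for Stat5a, 0.301 for Stat6 and 0.296 for Tyk2. For Jak2 the genotypes overlapped before LPS and were apart after it, and for Stat6 they were apart before LPS and overlapped after it. With 35.8% of all genes smaller and 32.7% larger in Pim1-/- cells by the same rule, such a difference was common in these libraries. The part of the macrophage marker and cell cycle shifts in these values was not tested.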

How the results depend on the processing

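Over the alternatives, 976 values of single members were computed. Of the 886 that did not involve equal FPKM sums or Actb, 883 kept their side of an adjusted p of 0.1. These also kept their direction wherever the main or the alternative fit passed it, and a change of sign where neither passed was not counted. The other 3 all came with quantile normalization, namely Stat6 after LPS (0.161), the response of Stat5a (0.062) and that of Stat2 (0.463). The replicate block, median-ratio scaling, no filter, no trend and only the groups compared changed no call by the 2-fold rule. For the block and median-ratio scaling this was largely fixed in advance. With equal groups the block leaves each log2 difference as it was, and the median-ratio factors were only 0.976 to 1.020. Leaving out WT untreated replicate 1 (1.016) or WT LPS replicate 3 (1.017) made Stat4 called higher with LPS in WT, and leaving out any other library changed no call. With the replicate block Stat3 after LPS had -1.643 with an SE of 0.049, in place of 0.061.

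Counts of called members moved as follows. Shares of all genes were not counted for these settings or for Actb, so the counts describe the members only. By adjusted p under 0.1 in the main fit, 44.2% of all genes were lower and 34.6% higher in untreated Pim1-/- cells. After LPS these shares were 43.4% and 37.6%. With LPS 45.4% were lower and 45.8% higher in WT, and 44.0% and 43.2% in Pim1-/- cells. Without a fold threshold, at an adjusted p under 0.05, 7 members were lower and 1 higher in Pim1-/- cells, both untreated and LPS-treated. With LPS 8 were higher and 1 lower in WT and likewise in Pim1-/- cells. Of the responses, 6 were smaller and 2 larger. A filter of 5 FPKM removed Stat4, leaving 0 higher in untreated cells. Quantile normalization left 1 lower after LPS, without Stat2 (-0.718) and Jak1 (-0.926), and gave 5 higher and 1 lower (Stat6, -1.191) with LPS in WT. A pseudocount of 0.1 gave 1 smaller response, that of Stat4, and 8 higher with LPS in WT. Equal FPKM sums gave 2 lower after LPS, without Stat2 (-0.837), 4 higher and 1 lower with LPS in WT, and 4 higher in Pim1-/- cells.

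Scaling to Actb, which itself changed with genotype and LPS, left 0 called lower in untreated cells, 0 lower and 3 higher after LPS, 2 lower and 3 higher with LPS in WT, 1 lower and 3 higher with LPS in Pim1-/- cells, and 3 larger responses. It turned the sign for untreated genotypes of Stat6 (0.001) and Jak2 (0.310). After LPS it did so for Stat2 (0.385), Stat5a (0.606), Stat5b (0.515), Stat6 (1.323), Jak1 (0.128), Jak2 (0.594) and Tyk2 (1.020). For LPS in WT it turned Stat3 (-0.395), Stat4 (-0.531), Stat5b (-1.119), Jak1 (-0.803) and Tyk2 (-0.933), and in Pim1-/- cells Stat3 (-0.095), Stat4 (-0.849), Stat5b (-0.515) and Jak1 (-0.565). For the responses it turned Stat3 (0.300), Stat5a (0.808), Stat5b (0.604), Jak1 (0.239) and Jak2 (0.283). Equal FPKM sums turned Stat6 after LPS (0.148) and Stat4 with LPS in Pim1-/- cells (-0.124). Which scaling holds was not tested, and Stat4, with the fewest fragments, has the least depth.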
